A study of Homo sapiens with 12 samples.

Results

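The cytosolic ribosomal protein genes encode the protein part of the ribosome of the cytoplasm. They were taken here as the symbols that begin with RPL or RPS followed by a number, with A or X at the end where present, together with RPLP0, RPLP1, RPLP2 and RPSA. This gave 77 genes of the 60617 gene IDs in the count tables, 46 of the large and 31 of the small subunit. The cells were 769-P, a line established from a human renal carcinoma of the clear cell type, and carried siRNA (small interfering RNA). The groups are siDRAIC (siRNA to the long non-coding RNA DRAIC), siDRAIC-NC, sihnRNPA2B1 (siRNA to HNRNPA2B1, which encodes an RNA-binding protein of the nucleus) and sihnRNPA2B1-NC, with 3 libraries each. The NC groups are taken as the controls of the siRNA they are named with. The labels do not say what NC stands for or whether the 3 libraries of a group were separate cultures, so every p-value measures only the spread between these libraries, which may be technical.

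Ribosomes are built in the nucleolus from ribosomal RNA and proteins that are nearly all needed in equal numbers, and the genes for these proteins are among the most strongly transcribed in dividing cells. Their mRNAs typically begin with a C followed by a run of C and T, the terminal oligopyrimidine (TOP) tract, through which the mTOR pathway and the protein LARP1 control their translation and stability. Several of the proteins, RPL5 and RPL11 among them, also bind MDM2 when ribosome assembly is disturbed.

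HNRNPA2B1 RNA, which checks the labels of its experiment, was 291, 307 and 274 CPM (a gene's counts scaled to a fixed library total) in the sihnRNPA2B1 libraries, against 428, 396 and 435 CPM in the sihnRNPA2B1-NC libraries, a log2 fold change of -0.56 (SE 0.05, edgeR adjusted p = 2.16e-09). The target DRAIC was counted 3, 6 and 0 times in siDRAIC, against 2, 1 and 2 times in siDRAIC-NC, too few to check those labels by the targeted RNA. Library totals ran from 30798303 to 42760528 counts. Of 6 kidney epithelium markers 5 passed 1 CPM in every library, PAX8 with 419 to 532 CPM, and EPCAM stayed at or below 0.935 CPM. CDH6 of that list was 204 ± 19.2 CPM in siDRAIC and 109 ± 15.9 CPM in siDRAIC-NC, and 30.9 ± 3.55 CPM in sihnRNPA2B1 and 7.99 ± 0.75 CPM in sihnRNPA2B1-NC (SD, n = 3 each). Of 5 clear cell carcinoma markers VIM (874 to 1776 CPM), NNMT (17.6 to 44.4 CPM) and ANGPTL4 (at least 1.10 CPM) passed 1 CPM, while CA9 and NDUFA4L2 stayed at or below 0.0284 and 0.235 CPM. No blood, endothelial or hepatocyte marker passed 0.444 CPM. Of 4 fibroblast markers, COL1A1 passed 1 CPM in every library and PDGFRB in some libraries only. COL1A1 had 9.88 ± 3.10 CPM in siDRAIC and 2.63 ± 1.66 CPM in siDRAIC-NC (SD, n = 3 each). It had 3.16 ± 0.17 CPM in sihnRNPA2B1 and 2.20 ± 0.28 CPM in sihnRNPA2B1-NC. PDGFRB had 4.24 ± 2.21, 1.28 ± 0.65, 0.66 ± 0.25 and 0.70 ± 0.14 CPM in these groups in the same order. The part of these markers in the results was not tested. The library siDRAIC-NC replicate 1 stood apart from the other 2 siDRAIC-NC libraries for many of the genes below, and results that turn on it are given with and without it.

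The TOP tract is the feature that the messages of these genes are best known to share. The 30 bases around an annotated transcription start (10 before it and 20 from it) are therefore shown for the members on which the comparisons turn. They come from RefSeq on GRCh38.p14 and are written 5′ to 3′ on the strand of the gene, with the tract in capitals. A tract was called where the first base was C and at least 4 bases of C or T followed without a break, on the gene's own strand only. Where a gene had more than 1 annotated start, the start with the longest tract was shown. RPL10 had a tract at 1 of its 3 starts.

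RPLP1, chr15:69452808-69452837, plus strand: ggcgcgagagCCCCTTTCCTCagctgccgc
RPS12, chr6:132814559-132814588, plus strand: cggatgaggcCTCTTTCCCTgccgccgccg
RPS21, chr20:62387093-62387122, plus strand: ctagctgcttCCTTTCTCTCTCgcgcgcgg
RPL35, chr9:124861938-124861967, minus strand: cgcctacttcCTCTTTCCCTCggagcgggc
RPL10, chrX:154398367-154398396, plus strand: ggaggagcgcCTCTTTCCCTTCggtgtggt
RPL18, chr19:48619159-48619188, minus strand: agcccgttctCTCTTTCCggacctggccga
RPS15, chr19:1438386-1438415, plus strand: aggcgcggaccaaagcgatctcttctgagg
RPL22, chr1:6199576-6199605, minus strand: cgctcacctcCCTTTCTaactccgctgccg
RPS3A, chr4:151099618-151099647, plus strand: cccacttccgCCCTTTTggctctctgacca
RPL39, chrX:119791611-119791640, minus strand: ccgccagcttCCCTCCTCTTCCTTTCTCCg

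Of the 62 members with an entry, 46 had a tract at a listed start (28 of 38 large and 18 of 24 small subunit members), or 74.2%, against 1404 of 27305 genes, or 5.14%, in the whole table. The tracts were 5 to 19 bases long with a median of 8, and that of RPL39 was the longest. The start of RPS15 shown above carries none; counts per gene do not show which start these cells used. The 77 genes lie on 21 chromosomes, 12 of them on chromosome 19, 7 on chromosome 3 and 6 on chromosome 17.

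All 77 genes had counts in all 12 libraries, and together they took 3.81% to 4.94% of each library. The share was 4.17%, 4.36% and 3.81% in the siDRAIC libraries, against 4.18%, 4.94% and 4.79% in the siDRAIC-NC libraries. It was 3.82%, 3.98% and 4.13% in the sihnRNPA2B1 libraries, against 4.27%, 4.34% and 4.17% in the sihnRNPA2B1-NC libraries. The groups overlapped in the DRAIC experiment and did not overlap in the hnRNPA2B1 experiment, where the means were 3.98% ± 0.15 and 4.26% ± 0.086 (SD, n = 3 each). The overlap in the DRAIC experiment came from siDRAIC-NC replicate 1 alone. Without that library the groups did not overlap, but it was singled out by its values, so this is no separate result. In bulk libraries fewer cells that express a gene and less of its RNA per cell cannot be told apart.

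**Figure D1:**
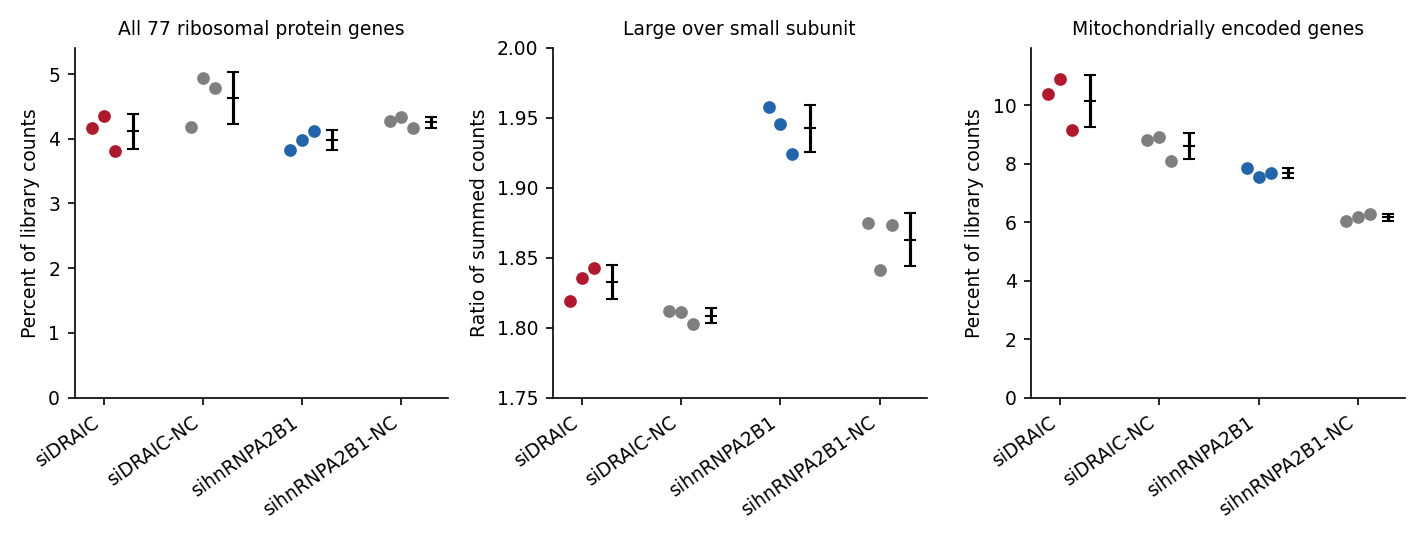
Share of library counts from the 77 genes (left), ratio of summed large to summed small subunit counts (middle, axis not from 0) and share of counts from mitochondrially encoded genes (right), in percent or as a ratio. Points are single libraries and bars the mean ± SD of 3; the sihnRNPA2B1 libraries hold the 3 highest ratios, 1.92 to 1.96.

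Mitochondrially encoded RNA took a larger share in both siRNA groups and enters the same total. It took 10.4%, 10.9% and 9.16% in siDRAIC, against 8.81%, 8.91% and 8.08% in siDRAIC-NC, and 7.87%, 7.53% and 7.67% in sihnRNPA2B1, against 6.05%, 6.17% and 6.27% in sihnRNPA2B1-NC. With these genes left out of the total, the ribosomal protein share was 4.15%, 4.31% and 4.47% in sihnRNPA2B1, against 4.54%, 4.62% and 4.45% in sihnRNPA2B1-NC, and these groups overlapped. The tests of single genes below scale each library by TMM factors, not by the total.

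The ratio of summed large to summed small subunit counts also differed between groups. Large subunit counts were 1.96, 1.95 and 1.92 times the small subunit counts in the sihnRNPA2B1 libraries, against 1.87, 1.84 and 1.87 times in the sihnRNPA2B1-NC libraries. The ratio was 1.82, 1.84 and 1.84 in the siDRAIC libraries, against 1.81, 1.81 and 1.80 in the siDRAIC-NC libraries. Neither pair of groups overlapped, and the means were 1.94 ± 0.017 against 1.86 ± 0.019 and 1.83 ± 0.012 against 1.81 ± 0.0053 (SD, n = 3 each). The control groups did not overlap with each other either, with means of 1.86 in sihnRNPA2B1-NC and 1.81 in siDRAIC-NC. In each case 3 libraries against 3 cannot give an exact p below 0.1.

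Levels differed widely between members although nearly all of their proteins are used in equal numbers. Per kb of coding sequence, the mean over the 12 libraries was 3035 CPM for RPLP0, the base of the stalk that binds elongation factors. It was 2577 CPM for RPS2, which lies near the entry of the mRNA channel, and 2485 CPM for RPL8, which lies near the peptidyl transferase centre. The medians were 890.2 CPM per kb in large and 934 CPM per kb in small subunit members. Per kb of the merged exons of all transcripts, the highest members were RPL8, RPLP0 and RPL19 of the large and RPS2, RPS12 and RPS18 of the small subunit, and the lowest of the large subunit was RPL36A.

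Among the members described here, 4 lay far below the others. RPS10 had 3.51, RPL36A 16.2, RPL17 25.5 and RPL26 38.8 CPM per kb of coding sequence, and the next member, RPL22, had 118. These 4 also had over 50% of the exon bases of their main transcript inside another gene on the same strand, from 59% in RPL26 to 91% in RPL17. The overlapping genes are RPS10-NUDT3, RPL36A-HNRNPH2, RPL17-C18orf32 and AC135178.2 in GENCODE 29, and each of them had 0 counts in all 12 libraries. The next member in overlap, RPS15A, had 41.5% and 179 CPM per kb. How the counting treated reads shared by genes is not stated, so the levels of these 4 are uncertain.

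**Figure D2:**
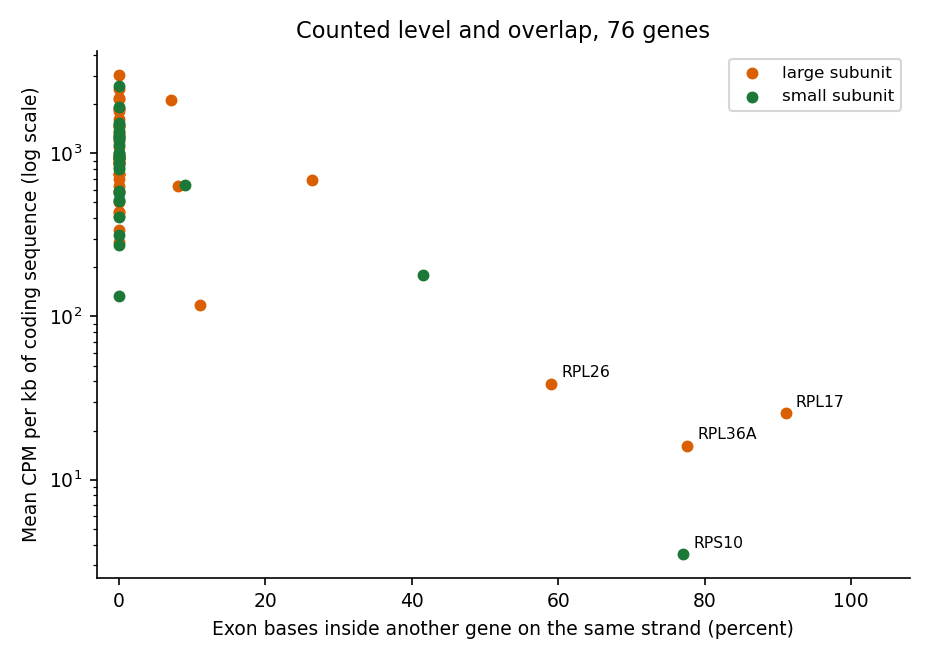
Mean CPM per kb of coding sequence over 12 libraries (log scale) against the percent of exon bases of the main transcript that lie inside another gene on the same strand; each point is 1 of 76 genes, coloured by subunit. The 4 named genes, at 59% to 91% overlap, are also the lowest plotted, at 3.51 to 38.8 CPM per kb.

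Processed pseudogenes share most of the sequence of these messages. The counts on pseudogenes named after a member came to 188% of the member's own counts in RPS10, 60.2% in RPL36A and 33.3% in RPL17, with a median of 0.291% over the 77 members. Among strongly counted members the ratio was 19.3% in RPL41, 18.1% in RPL23A, 18% in RPS2 and 13.2% in RPL13.

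After hnRNPA2B1 siRNA, 36 of the 77 genes fell and 3 rose. Of the large subunit members 19 fell and 2 rose (median log2 fold change -0.12), and of the small subunit members 17 fell and 1 rose (median -0.17). Called here means an adjusted p below 0.05 in edgeR's quasi-likelihood test over 15710 tested genes. Over all tested genes 15.4% were called lower and 15.1% higher, 30.4% in all, at a median of 0.01. Most of the 77 are strongly expressed. Among the 2233 tested genes with a mean of at least 100 CPM, 34.3% were called lower and 50.7% called in all, against 46.8% and 50.6% of the 77, and their median was -0.06. The sizes were small, from -0.34 in RPS21 to 0.18 in RPL22 on the log2 scale.

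Among the small subunit genes, RPS15, whose protein lies in the head of the subunit near the decoding site, was called with the smallest p (ENSG00000115268, chr19:1438358-1440494 on GRCh38). RPS15 had 255, 265 and 280.4 CPM in the sihnRNPA2B1 libraries, against 329, 345 and 315 CPM in the sihnRNPA2B1-NC libraries, a log2 fold change of -0.34 (SE 0.05, edgeR adjusted p = 2.15e-05). RPS12 had 393, 427 and 456 CPM in the sihnRNPA2B1 libraries, against 532, 543 and 484 CPM in the sihnRNPA2B1-NC libraries, a log2 fold change of -0.32 (SE 0.06, edgeR adjusted p = 8.8e-05). RPS16 had 466, 479.8 and 500.0 CPM in the sihnRNPA2B1 libraries, against 571, 574 and 554 CPM in the sihnRNPA2B1-NC libraries, a log2 fold change of -0.27 (SE 0.05, edgeR adjusted p = 0.000142); its protein reaches toward the tRNA in the P site. In all 3 genes every sihnRNPA2B1 library lay below every sihnRNPA2B1-NC library. RPS2 had 1968, 1962 and 2069 CPM in the sihnRNPA2B1 libraries, against 2308, 2419 and 2209 CPM in the sihnRNPA2B1-NC libraries, a log2 fold change of -0.24 (SE 0.05, edgeR adjusted p = 0.000325), again without overlap. RPS21 (-0.34), RPS29 (-0.29), RPS13 (-0.28), RPS3 (-0.27), RPS19 (-0.25) and RPSA (-0.24) also fell by these log2 fold changes. RPS29 was not called without sihnRNPA2B1 replicate 1 or 2 or sihnRNPA2B1-NC replicate 2 (edgeR adjusted p 0.0582 to 0.248).

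Among the large subunit genes, RPL35 (ENSG00000136942, chr9:124857880-124861981 on GRCh38), at the exit of the protein tunnel, had the smallest p. RPL35 had 323, 335 and 347 CPM in the sihnRNPA2B1 libraries, against 391, 415 and 388 CPM in the sihnRNPA2B1-NC libraries, a log2 fold change of -0.28 (SE 0.05, edgeR adjusted p = 0.00012). RPL10 had 720.1, 807 and 847 CPM in the sihnRNPA2B1 libraries, against 972, 981 and 908 CPM in the sihnRNPA2B1-NC libraries, a log2 fold change of -0.30 (SE 0.06, edgeR adjusted p = 0.000128); RPL10 is among the last proteins to join the large subunit, and 55.9% of its exon bases lie under a gene on the other strand. RPL36 had 144, 154 and 158 CPM in the sihnRNPA2B1 libraries, against 184, 193 and 175 CPM in the sihnRNPA2B1-NC libraries, a log2 fold change of -0.31 (SE 0.06, edgeR adjusted p = 0.000131). None of these 3 genes showed an overlap between groups. RPLP1 had 501, 581 and 618 CPM in the sihnRNPA2B1 libraries, against 706, 756 and 629 CPM in the sihnRNPA2B1-NC libraries, a log2 fold change of -0.33 (SE 0.07, edgeR adjusted p = 0.000323); its groups did not overlap either. RPLP1 is a stalk protein, and the other stalk genes fell too, RPLP2 with a log2 fold change of -0.22 and RPLP0 with -0.21; RPLP2 was not called without sihnRNPA2B1-NC replicate 1 (edgeR adjusted p = 0.0587).

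**Figure D3:**
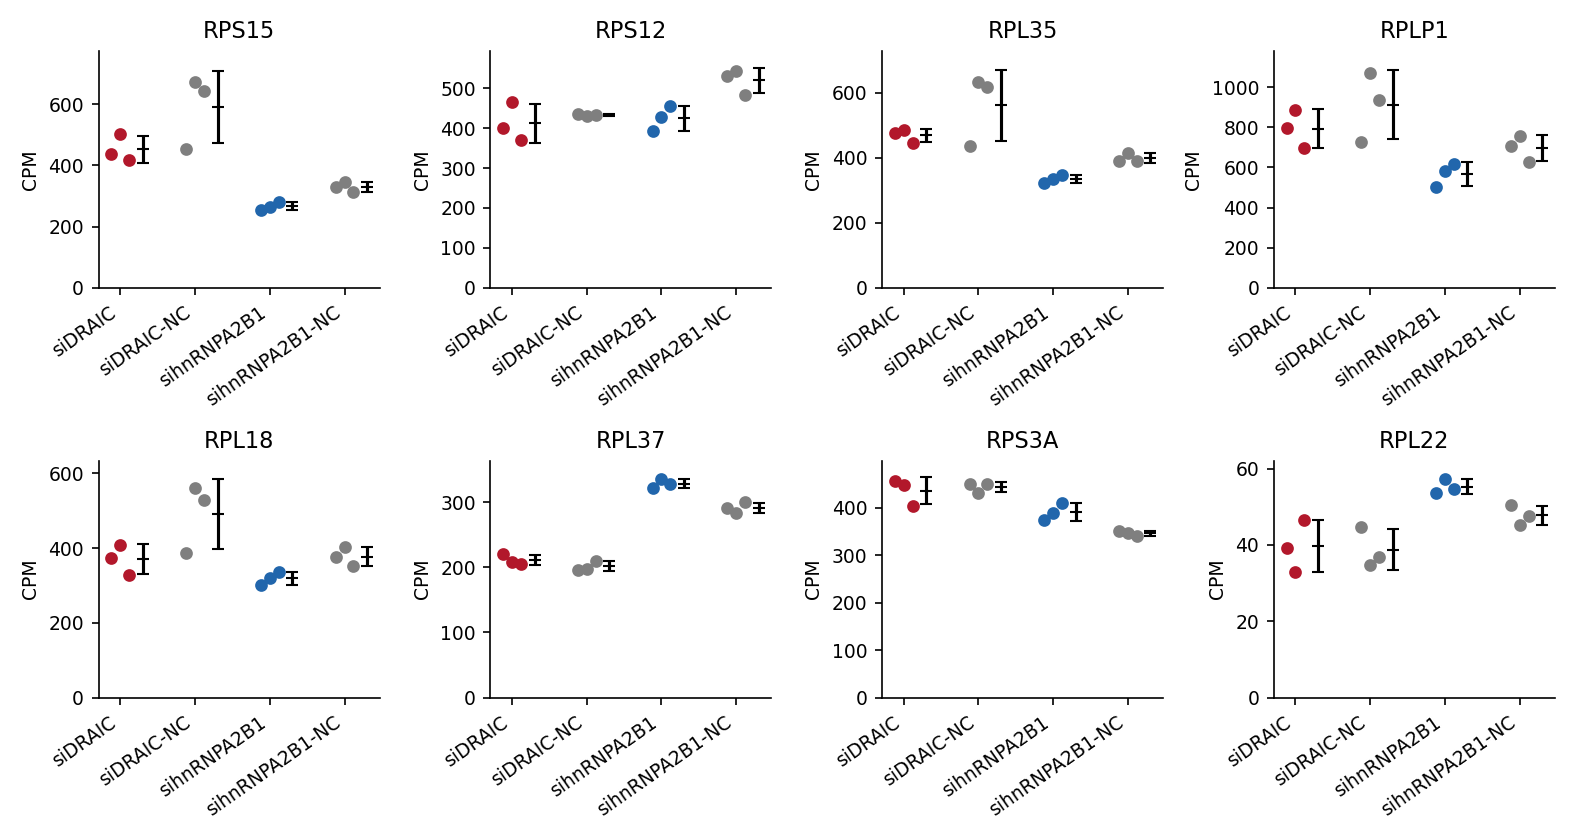
CPM of 8 members in each library, with the mean ± SD of 3 to the right of each group. RPS15, RPS12, RPL35, RPLP1 and RPL18 are lower in every sihnRNPA2B1 library than in any sihnRNPA2B1-NC library, RPL37, RPS3A and RPL22 higher, and siDRAIC-NC replicate 1 lies below the other 2 siDRAIC-NC libraries in RPS15, RPL35, RPLP1 and RPL18.

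The 3 members that rose did so by little. RPL22 had 53.6, 57.4 and 54.7 CPM in the sihnRNPA2B1 libraries, against 50.4, 45.3 and 47.6 CPM in the sihnRNPA2B1-NC libraries, a log2 fold change of 0.18 (SE 0.07, edgeR adjusted p = 0.0386); RPL22 is an RNA-binding protein that is not needed for ribosome function in most cells. RPL37 had 321, 336 and 328 CPM in the sihnRNPA2B1 libraries, against 290.4, 283 and 299 CPM in the sihnRNPA2B1-NC libraries, a log2 fold change of 0.14 (SE 0.05, edgeR adjusted p = 0.0286). RPS3A had 373, 389 and 411 CPM in the sihnRNPA2B1 libraries, against 351, 347 and 340.5 CPM in the sihnRNPA2B1-NC libraries, a log2 fold change of 0.14 (SE 0.05, edgeR adjusted p = 0.0355); its protein lies at the exit of the mRNA channel. The groups did not overlap in any of the 3, yet these calls were lost in several alternatives. Without the low-count filter RPL22, RPL37 and RPS3A had edgeR adjusted p of 0.0665, 0.0573 and 0.0517. RPL22 was not called (adjusted p 0.0502 to 0.193) when any 1 of the 6 libraries was left out. RPL37 was not called without sihnRNPA2B1 replicate 2 or 3 or sihnRNPA2B1-NC replicate 1 (0.0818 to 0.167), nor RPS3A without sihnRNPA2B1 replicate 2 or 3 or sihnRNPA2B1-NC replicate 1 or 3 (0.0505 to 0.213).

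The overlap of the groups was also counted without a model. The sihnRNPA2B1 libraries lay below all sihnRNPA2B1-NC libraries in CPM for 37 of the 77 genes and above them for 11, where 18.3% and 23.7% of all tested genes did so. Of the 39 called members, 19 stayed called with every 1 library left out, 9 large (among them RPL35, RPL10, RPL36, RPLP1, RPL18, RPL12, RPL8 and RPLP0) and 10 small subunit genes, and all of these fell. Without sihnRNPA2B1 replicate 1 the calls came to 22, of which 20 fell. The share of all tested genes called in these fits is not given here, so these counts do not set the 77 apart from other genes. In an edgeR fit of all 12 libraries, whose shared spread takes in the DRAIC experiment, 0 of the 77 were called, against 1.66% of all genes, with a log2 fold change of -0.34 for RPS15 (adjusted p = 0.307).

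**Figure D4:**
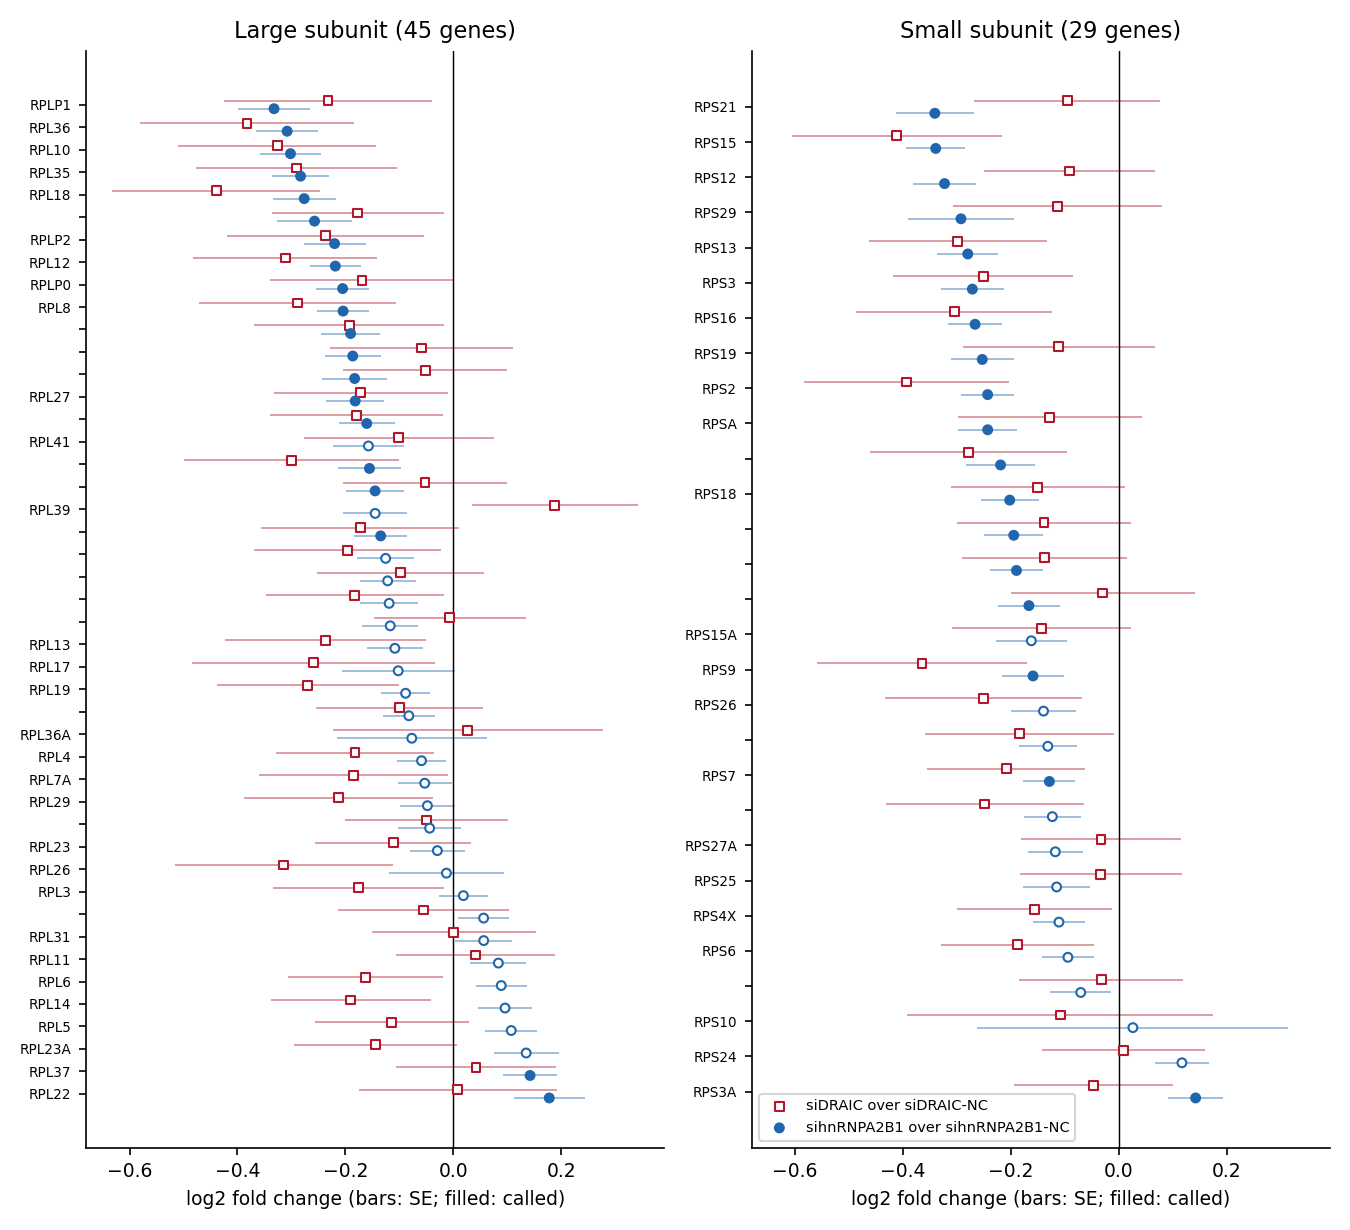
Log2 fold change of 74 of the genes with its SE (bars), ordered within each subunit by the change after hnRNPA2B1 siRNA, for siDRAIC over siDRAIC-NC (squares) and sihnRNPA2B1 over sihnRNPA2B1-NC (circles); filled symbols are called at an adjusted p below 0.05, and only genes named in the text are labelled. Most symbols lie below 0 in both experiments, 35 circles are filled below 0 and 3 above, and no square is filled.

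In the DRAIC experiment 0 of the 77 genes were called in edgeR, DESeq2 or limma-voom, where edgeR called 0.713% of 15986 tested genes, 0.582% higher and 0.131% lower. At an unadjusted edgeR p below 0.05 there were 2, RPL18 among them, against 1713 of the 15986 tested genes. The direction was mostly downward: 40 of 46 large subunit members (median log2 fold change -0.18) and 30 of 31 small subunit members (median -0.15) lay below 0, against 50.5% of all tested genes at a median of -0.0046. Among the 2168 tested genes with a mean of at least 100 CPM, 62.2% lay below 0, at a median of -0.07. The 7 members above 0 were RPL39, RPL37, RPL11, RPL36A, RPS24, RPL22 and RPL31, with RPL39 highest at 0.19. RPL39 stayed above 0 in every alternative (0.12 to 0.26), while the other 6 lay on either side of 0, RPL36A from -0.13 to 0.16 and RPL22 from -0.11 to 0.09. Over the alternatives 65 to 74 of the 77 lay below 0, the fewest with upper-quartile factors.

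The small subunit genes with the smallest p included RPS15, RPS2 and RPS9. RPS15 had 438, 502 and 419 CPM in the siDRAIC libraries, against 455, 673 and 643 CPM in the siDRAIC-NC libraries, a log2 fold change of -0.41 (SE 0.19, edgeR adjusted p = 0.476). RPS2 had 2217, 2250.2 and 1761 CPM in the siDRAIC libraries, against 2154, 3134 and 2725 CPM in the siDRAIC-NC libraries, a log2 fold change of -0.39 (SE 0.19, edgeR adjusted p = 0.494). RPS9 had 464, 506 and 394 CPM in the siDRAIC libraries, against 453, 667 and 602 CPM in the siDRAIC-NC libraries, a log2 fold change of -0.36 (SE 0.19, edgeR adjusted p = 0.532). In each, siDRAIC-NC replicate 1 lay among the siDRAIC libraries and the other 2 siDRAIC-NC libraries above all of them.

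The large subunit genes with the smallest p included RPL18, RPL36 and RPL12. RPL18 had 375, 408 and 328 CPM in the siDRAIC libraries, against 386, 560.0 and 529 CPM in the siDRAIC-NC libraries, a log2 fold change of -0.44 (SE 0.19, edgeR adjusted p = 0.425). RPL36 had 166, 200.0 and 167 CPM in the siDRAIC libraries, against 174, 253 and 254 CPM in the siDRAIC-NC libraries, a log2 fold change of -0.38 (SE 0.20, edgeR adjusted p = 0.524). Here too siDRAIC-NC replicate 1 overlapped the siDRAIC libraries. RPL12 had 833, 869.6 and 688 CPM in the siDRAIC libraries, against 858, 1036 and 1020.4 CPM in the siDRAIC-NC libraries, a log2 fold change of -0.31 (SE 0.17, edgeR adjusted p = 0.546); RPL12 forms the base of the stalk.

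Samples with the same number deviated together in this experiment, though the labels do not say that the numbers pair libraries. With the number as a block RPL18 fell (log2 fold change -0.42, SE 0.14, edgeR adjusted p = 0.0407), 1 of the 77, against 8.78% of all tested genes called and 3.58% called lower. In that fit 6 large and 6 small subunit members had an unadjusted edgeR p below 0.05, and the share of all tested genes there is not given here. Medians were -0.17 in large and -0.15 in small subunit members. Without siDRAIC-NC replicate 1, 7 members fell and 0 rose, against 6.26% of all tested genes called and 3.23% called lower. Among them were RPL18 (-0.62), RPL36 (-0.57), RPL35 (-0.48), RPS15 (-0.60), RPS2 (-0.56) and RPS9 (-0.54), with edgeR adjusted p from 0.0266 to 0.0496. The medians were then -0.29 in large and -0.25 in small subunit members. Leaving out any other library of this experiment gave 0 calls. The library siDRAIC-NC replicate 1 was singled out by its values, and leaving it out without siDRAIC replicate 1 breaks up a same-numbered set. The siDRAIC libraries lay below all siDRAIC-NC libraries for 5 members, RPS7, RPS6, RPS4X, RPL4 and RPL6, and above for 1, RPL39, where 5.86% and 9.75% of all tested genes did so.

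To compare the experiments, the hnRNPA2B1 log2 fold change was subtracted from the siDRAIC one and tested in 1 fit of all 12 libraries. None of the 77 was called in edgeR, DESeq2 or limma-voom, where edgeR called 0.211% of 17091 genes. An unadjusted edgeR p below 0.05 was found for 2 of the 77, against 1561 of the 17091 genes. The medians of the difference were -0.10 in large and -0.08 in small subunit members, against -0.05 in all tested genes. The large subunit members with the smallest p were RPL14 (-0.32), RPL23A (-0.31), RPL6 (-0.28) and RPL5 (-0.25), with edgeR adjusted p of 0.486 to 0.554. In these 4 the log2 fold change was below 0 in the libraries labelled siDRAIC (-0.19, -0.14, -0.16 and -0.11 in that order) and above 0 after hnRNPA2B1 siRNA (0.10, 0.13, 0.09 and 0.11), with none called in either. For the small subunit they included RPS3A (-0.22) and RPS12 (0.19), with edgeR adjusted p of 0.662 and 0.776.

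In single libraries these members showed small differences. They were picked by their p for the difference, so opposite directions in the experiments are partly set by that choice. Their library values are a description and no separate result. Over all tested genes, 5.86% lay lower without overlap in siDRAIC and 23.7% higher without overlap in sihnRNPA2B1. RPL14 had 284, 267 and 310.4 CPM in the siDRAIC libraries, against 318, 303 and 344 CPM in the siDRAIC-NC libraries. RPL14 had 265, 278 and 277 CPM in the sihnRNPA2B1 libraries, against 247, 247 and 257 CPM in the sihnRNPA2B1-NC libraries. RPL14 was lower in siDRAIC than in siDRAIC-NC in each pair of the same number although the groups overlapped, and every sihnRNPA2B1 library lay above its controls. RPL6 had 705, 712 and 739 CPM in the siDRAIC libraries, against 883, 753 and 745 CPM in the siDRAIC-NC libraries. RPL6 had 900.3, 894 and 901 CPM in the sihnRNPA2B1 libraries, against 841, 784 and 854 CPM in the sihnRNPA2B1-NC libraries. RPL6 was lower in every siDRAIC library and higher in every sihnRNPA2B1 library than in the controls of the same experiment. RPL5 had 649, 641 and 664 CPM in the siDRAIC libraries, against 761, 638 and 685 CPM in the siDRAIC-NC libraries. RPL5 had 882, 927 and 941 CPM in the sihnRNPA2B1 libraries, against 822, 809 and 864 CPM in the sihnRNPA2B1-NC libraries. The RPL5 groups overlapped in the DRAIC experiment, where siDRAIC-NC replicate 2 lay below every siDRAIC library, and the sihnRNPA2B1 libraries lay above their controls. RPL5 forms a particle with RPL11 and 5S ribosomal RNA. RPL23A had 184, 167 and 188 CPM in the siDRAIC libraries, against 185, 205 and 195 CPM in the siDRAIC-NC libraries. RPL23A had 88.5, 81.4 and 87.7 CPM in the sihnRNPA2B1 libraries, against 79.7, 75.5 and 74.2 CPM in the sihnRNPA2B1-NC libraries. Only the groups of the hnRNPA2B1 experiment were free of overlap for RPL23A, which also stood lower in both groups of that experiment. RPS3A had 456, 448 and 403 CPM in the siDRAIC libraries, against 450.3, 430.4 and 449.5 CPM in the siDRAIC-NC libraries. These RPS3A groups overlapped.

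The experiments share no library, and the log2 fold changes of the 77 genes in both gave a Spearman's rho of 0.46 (Pearson's r 0.46), against 0.35 (0.38) over the 14962 genes tested in both. This is across genes, which are not independent replicates. RPL18, RPL36, RPL35, RPS15 and RPS2 stood low in both, while RPS12 was -0.32 after hnRNPA2B1 siRNA and -0.09 in siDRAIC. RPS12 had 400.5, 464 and 370.3 CPM in the siDRAIC libraries, against 435, 430.1 and 433 CPM in the siDRAIC-NC libraries.

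Members of higher GC content had lower log2 fold changes. The GC content of the coding sequence ran from 42.5% in RPL39 to 63.0% in RPS15, with a median of 51.6%. Across the 77 genes, Spearman's rho between GC content and log2 fold change was -0.61 in siDRAIC (0.01 over 12627 tested coding genes) and -0.47 after hnRNPA2B1 siRNA (-0.23 over 12452). After hnRNPA2B1 siRNA, 26 of the 38 members above the median GC fell and 0 rose, against 10 that fell and 3 that rose of the 39 at or below it. Over all tested genes, of any GC content, 15.4% were called lower and 15.1% higher. Shares within GC ranges are not given here. In siDRAIC all 38 members above the median lay below 0 (median -0.23), and 32 of the other 39 did (median -0.11). These are descriptions across genes of the same libraries, and the part of base composition in the changes was not tested.

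**Figure D5:**
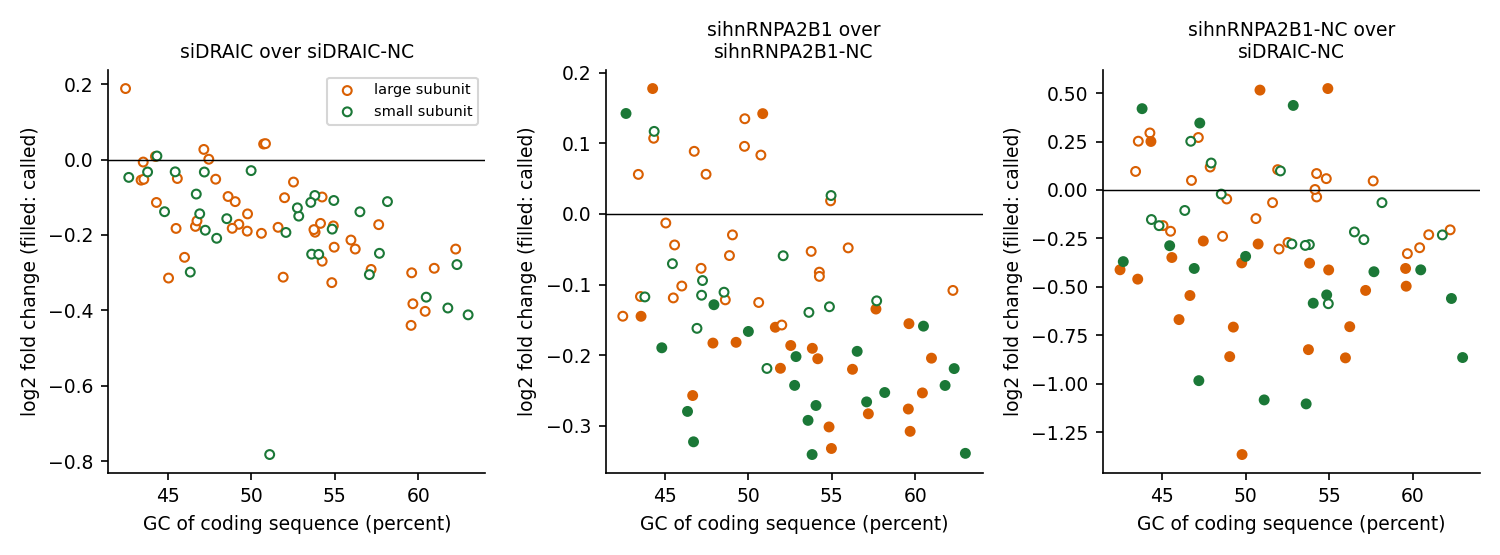
Log2 fold change of the 77 genes against the GC percent of their coding sequence in 3 comparisons, coloured by subunit, filled where called at an adjusted p below 0.05; the vertical axes differ in range. Genes of high GC lie lower in both siRNA comparisons, with Spearman's rho of -0.61 and -0.47, and less so between the control groups (-0.26).

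Members that fell were found with and without a tract called at a listed start. A run of C and T that begins a few bases from the listed start was not called. Members without a called tract may therefore still have one nearby. After hnRNPA2B1 siRNA 25 of the 46 genes with a tract fell and 2 rose (median -0.16), against 7 and 0 of the 16 without one (median -0.13). Of all tested genes 15.4% were called lower and 15.1% higher. Both genes that rose and have an entry, RPL22 and RPS3A, carry a tract, as the sequences above show. RPS15 fell with none called at its 1 listed start, which lies downstream of the gene start given above. No other start of RPS15 was examined. In siDRAIC 40 of the 46 and 16 of the 16 lay below 0 (medians -0.14 and -0.18). In sihnRNPA2B1-NC against siDRAIC-NC 21 of the 46 with a tract were lower and 3 higher (median -0.28), against 5 and 1 of the 16 without one (median -0.06). There 26.6% of all tested genes were called lower and 25% higher. The difference between members with and without a tract was not tested.

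The comparison of the control groups shows how far these genes differ between the experiments without either siRNA. In sihnRNPA2B1-NC against siDRAIC-NC, 19 large subunit members were lower and 3 higher (median -0.25), and 13 small subunit members were lower and 3 higher (median -0.28), where 51.6% of all 17091 tested genes were called, 26.6% lower and 25% higher. Among the 2202 genes with a mean of at least 100 CPM 64.2% were called and 33.8% were lower, against 49.4% and 41.6% of the 77. Without siDRAIC-NC replicate 1 the calls came to 57, of which 50 were lower, against 55.2% of all genes called. RPL23A had 79.7, 75.5 and 74.2 CPM in the sihnRNPA2B1-NC libraries, against 185, 205 and 195 CPM in the siDRAIC-NC libraries, a log2 fold change of -1.37 (SE 0.11, edgeR adjusted p = 1.06e-07); RPL23A lies at the tunnel exit. RPS25 had 72.8, 69.9 and 69.2 CPM in the sihnRNPA2B1-NC libraries, against 138, 137 and 141 CPM in the siDRAIC-NC libraries, a log2 fold change of -0.98 (SE 0.10, edgeR adjusted p = 1.19e-06); 36.6% of its exon bases lie under a gene on the other strand. RPS26 had 139, 142 and 134 CPM in the sihnRNPA2B1-NC libraries, against 230.5, 338 and 309 CPM in the siDRAIC-NC libraries, a log2 fold change of -1.10 (SE 0.15, edgeR adjusted p = 1.72e-05). None of these groups overlapped. RPL23 had 301, 282 and 312 CPM in the sihnRNPA2B1-NC libraries, against 546, 502 and 562 CPM in the siDRAIC-NC libraries, a log2 fold change of -0.86 (SE 0.09, edgeR adjusted p = 1.98e-06). RPL29 had 253, 253 and 237 CPM in the sihnRNPA2B1-NC libraries, against 393, 469.7 and 473 CPM in the siDRAIC-NC libraries, a log2 fold change of -0.87 (SE 0.13, edgeR adjusted p = 4.46e-05). RPL7A had 900.1, 897 and 835 CPM in the sihnRNPA2B1-NC libraries, against 1323, 1671 and 1599 CPM in the siDRAIC-NC libraries, a log2 fold change of -0.82 (SE 0.13, edgeR adjusted p = 8.35e-05). Again no library of one group reached into the other. RPL27 had 274, 297 and 272 CPM in the sihnRNPA2B1-NC libraries, against 401, 479 and 479 CPM in the siDRAIC-NC libraries, a log2 fold change of -0.71 (SE 0.12, edgeR adjusted p = 0.000127). RPS15 had 329, 345 and 315 CPM in the sihnRNPA2B1-NC libraries, against 455, 673 and 643 CPM in the siDRAIC-NC libraries, a log2 fold change of -0.87 (SE 0.15, edgeR adjusted p = 0.000253). Both of these were free of overlap too, with siDRAIC-NC replicate 1 the nearest to the sihnRNPA2B1-NC libraries.

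Higher in the sihnRNPA2B1-NC libraries were RPL3, RPL37, RPL5, RPS18, RPS27A and RPS6. RPL3 had 2339.9, 2367 and 2323 CPM in the sihnRNPA2B1-NC libraries, against 1531, 1643 and 1661 CPM in the siDRAIC-NC libraries, a log2 fold change of 0.52 (SE 0.11, edgeR adjusted p = 0.000793); its protein, among the largest of the ribosome, reaches the peptidyl transferase centre. RPS6 had 833, 808 and 877 CPM in the sihnRNPA2B1-NC libraries, against 666, 644 and 654 CPM in the siDRAIC-NC libraries, a log2 fold change of 0.35 (SE 0.09, edgeR adjusted p = 0.00398); RPS6 is the substrate of the S6 kinases downstream of mTOR. RPS27A had 478, 471 and 485 CPM in the sihnRNPA2B1-NC libraries, against 401, 314 and 351 CPM in the siDRAIC-NC libraries, a log2 fold change of 0.42 (SE 0.09, edgeR adjusted p = 0.00138); RPS27A is made as a fusion with ubiquitin. All sihnRNPA2B1-NC libraries lay above all siDRAIC-NC libraries for these 3. RPL37 had 290.4, 283 and 299 CPM in the sihnRNPA2B1-NC libraries, against 196, 198 and 210.0 CPM in the siDRAIC-NC libraries, a log2 fold change of 0.52 (SE 0.09, edgeR adjusted p = 0.0003). RPS18 had 825, 860.2 and 794 CPM in the sihnRNPA2B1-NC libraries, against 553, 599 and 659 CPM in the siDRAIC-NC libraries, a log2 fold change of 0.44 (SE 0.11, edgeR adjusted p = 0.00517). RPL5 had 822, 809 and 864 CPM in the sihnRNPA2B1-NC libraries, against 761, 638 and 685 CPM in the siDRAIC-NC libraries, a log2 fold change of 0.25 (SE 0.08, edgeR adjusted p = 0.0222). The groups did not overlap for these either, and RPL5 had the narrowest gap, between 809 CPM in sihnRNPA2B1-NC replicate 2 and 761 CPM in siDRAIC-NC replicate 1. RPL5 was not called without siDRAIC-NC replicate 2 or without any 1 of the sihnRNPA2B1-NC libraries (edgeR adjusted p 0.0525 to 0.0832), nor with upper-quartile factors (0.106) or without a filter (0.0996). The experiment and the control treatment are the same contrast here and cannot be told apart.

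FAU, which makes a further cytosolic ribosomal protein as a fusion with a ubiquitin-like protein, fell after hnRNPA2B1 siRNA. FAU had 93.8, 109 and 113 CPM in the sihnRNPA2B1 libraries, against 132, 137 and 125 CPM in the sihnRNPA2B1-NC libraries, a log2 fold change of -0.35 (SE 0.07, edgeR adjusted p = 0.000141). No library of one group reached into the other. In siDRAIC FAU stood at -0.23 on the log2 scale and was not called.

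Of 8 paralogs of ribosomal protein genes 6 were tested, and 3 fell and 0 rose after hnRNPA2B1 siRNA, against 15.4% and 15.1% of all tested genes. RPL39L had 4.81, 5.64 and 5.40 CPM in the sihnRNPA2B1 libraries, against 8.12, 6.38 and 6.89 CPM in the sihnRNPA2B1-NC libraries, a log2 fold change of -0.46 (SE 0.14, edgeR adjusted p = 0.0112); without sihnRNPA2B1 replicate 1 or sihnRNPA2B1-NC replicate 1 it was not called (adjusted p = 0.069 and 0.0858). RPL7L1 (-0.19) and RPL22L1 (-0.16) also fell. RPL22L1 was not called without sihnRNPA2B1 replicate 1 or 2 or sihnRNPA2B1-NC replicate 1 or 2 (edgeR adjusted p 0.0569 to 0.265). RPL26L1 (-0.05), RPL36AL (-0.04) and RPS27L (-0.11) were not called. In siDRAIC 0 of the 6 were called in edgeR, DESeq2 or limma-voom. An unadjusted edgeR p below 0.05 was found for 2, RPS27L at 0.40 and RPL39L at -0.62, against 1713 of all 15986 tested genes. RPL7L1, RPL22L1, RPL26L1 and RPL36AL stood at -0.16, -0.16, 0.20 and -0.18. Between the control groups RPL7L1 (0.88) and RPL22L1 (0.54) were higher and RPL36AL (-0.70) lower in sihnRNPA2B1-NC.

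Of 16 other TOP mRNAs tested, most of them of the translation machinery, 6 rose and 3 fell after hnRNPA2B1 siRNA (median 0.11). Of all tested genes 15.1% were called higher and 15.4% lower. EIF3E (0.52), EIF3L (0.27), both subunits of an initiation factor, and IPO7 (0.24), an import receptor, rose, and RACK1 (-0.21), a protein bound to the small subunit, fell. EIF3E had 303, 271 and 259 CPM in the sihnRNPA2B1 libraries, against 187, 173 and 208 CPM in the sihnRNPA2B1-NC libraries, a log2 fold change of 0.52 (SE 0.06, edgeR adjusted p = 1.33e-07), with no overlap. In siDRAIC 0 of the 16 were called (median -0.11; 0 at an unadjusted edgeR p below 0.05, and 0 in DESeq2 and limma-voom). Between the control groups 4 were higher and 6 lower in sihnRNPA2B1-NC, against 25% and 26.6% of all tested genes, with EIF4A2 (1.08), EIF3F (-0.77), EEF1D (-0.80) and TPT1 (0.52) at the smallest p.

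Of 40 ribosome biogenesis factors 12 fell and 3 rose after hnRNPA2B1 siRNA (median -0.09), where 15.4% of all tested genes were called lower and 15.1% higher. UTP14A (-0.37), a factor of small subunit processing, RRP9 (-0.38), which binds U3 small nucleolar RNA, RRP12 (-0.28) and BYSL (-0.34) had the smallest p. RRP9 had 33.2, 32.1 and 35.9 CPM in the sihnRNPA2B1 libraries, against 41.9, 43.1 and 43.3 CPM in the sihnRNPA2B1-NC libraries, a log2 fold change of -0.38 (SE 0.07, edgeR adjusted p = 0.000151). In siDRAIC 39 of the 40 lay below 0 (median -0.35), against 50.5% of all tested genes. None was called in edgeR or limma-voom, and 1 was called in DESeq2. At an unadjusted edgeR p below 0.05 there were 11, against 1713 of the 15986 tested genes. With the replicate number as a block 12 fell and 0 rose, against 3.58% of all tested genes called lower and 8.78% called in all. RRP9 had the smallest p in that fit (log2 fold change -0.85, SE 0.17, edgeR adjusted p = 5.63e-05). Between the control groups 15 were higher and 5 lower in sihnRNPA2B1-NC (median 0.24), 20 of 40 in all where 51.6% of all tested genes were called, with DDX21 (1.50), DKC1 (0.82), RIOK1 (1.25) and SBDS (1.44) at the smallest p.

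RNA polymerase I makes the ribosomal RNA. Of 19 genes of its machinery 7 fell and 0 rose after hnRNPA2B1 siRNA (median -0.15), where 15.4% of all tested genes were called lower and 30.4% in all, with POLR1D (-0.27), POLR2L (-0.32), POLR1A (-0.19) and POLR2K (-0.23) at the smallest p. POLR2K was not called without sihnRNPA2B1 replicate 2 or sihnRNPA2B1-NC replicate 1 (edgeR adjusted p = 0.0601 and 0.124). POLR2L and POLR2K are shared with other RNA polymerases. In siDRAIC all 19 lay below 0 (median -0.29), against 50.5% of all tested genes. None was called in edgeR, DESeq2 or limma-voom, and 4 had an unadjusted edgeR p below 0.05. Of all 15986 tested genes 1713 had such an unadjusted p. With the block 1 fell, POLR1G (-0.68, edgeR adjusted p = 0.0204), against 3.58% of all tested genes called lower and 8.78% called in all. Between the control groups 5 were higher and 8 lower in sihnRNPA2B1-NC, where 51.6% of all tested genes were called, among them POLR2L (-1.44), TAF1D (1.29), RRN3 (1.31) and POLR2F (-1.19).

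Of 16 regulators of ribosomal protein genes 6 fell and 1 rose after hnRNPA2B1 siRNA (median -0.09), against 15.4% and 15.1% of all tested genes. HNRNPD (-0.25), RPTOR (-0.19), a component of the mTOR complex, and RPS6KB2 (-0.24) fell, and RPS6KB1 (0.26), the other S6 kinase, rose. RPS6KB2 was not called without sihnRNPA2B1 replicate 1 or sihnRNPA2B1-NC replicate 2 (edgeR adjusted p = 0.0769 and 0.0839). In siDRAIC 0 were called in edgeR, DESeq2 or limma-voom, and 0 had an unadjusted edgeR p below 0.05. With the block 1 fell, LARP4 (-0.47, edgeR adjusted p = 0.0391), against 3.58% of all tested genes called lower and 8.78% called in all. Between the control groups 6 were higher and 2 lower in sihnRNPA2B1-NC, against 25% and 26.6% of all tested genes. MYC had 665, 693 and 646 CPM in the sihnRNPA2B1-NC libraries, against 219, 230.1 and 249 CPM in the siDRAIC-NC libraries, a log2 fold change of 1.50 (SE 0.11, edgeR adjusted p = 6.17e-08); MYC is a transcription factor that drives ribosome synthesis. CNBP (1.10) was higher, HNRNPD (-0.65) and EIF4EBP2 (-0.47) lower.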

How the data were processed

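RNA was measured in 12 libraries of 769-P cells, from total RNA and TruSeq libraries per the labels' protocols. The deposited values are raw counts per Ensembl gene in a table for each experiment. The submitters' processing notes name hg38, STAR 2.7.10a, fastp 0.23.2, DESeq2 and StringTie. The sources used here do not give the counting program, its annotation or its use of strand. Reads of near-identical copies and of overlapping genes are therefore uncertain, and so are those of RPS25, RPL30, RPL10 and RPL38, with 36.6% to 57.8% of exon bases under a gene on the other strand. There were 0 lines that name no gene.

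Each experiment was fitted alone, and the difference and the control groups on all 12 libraries with 4 group means, in edgeR 4.0.16 (R 4.3.3): filterByExpr at a minimum count of 10, TMM factors, robust quasi-likelihood tests, two-sided, Benjamini-Hochberg adjustment over all tested genes, called below 0.05. SE was taken as the size of the log2 fold change divided by the root of its F statistic. All 77 members passed the filter in every comparison. The pipeline was tested on simulated data. Libraries of a group differed beyond sampling noise. The chi-square per degree of freedom was 30.3 to 139.8 within the groups of the DRAIC experiment and 4.94 to 16.9 within those of the hnRNPA2B1 experiment. Same-numbered libraries of the DRAIC experiment deviated together (correlations 0.489, 0.227 and 0.277, against -0.409 to 0.103 in other pairs). The replicate block treats them as pairs, but the labels do not say that they are paired. Same-numbered libraries of the hnRNPA2B1 experiment did not deviate together.

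Coding lengths, exons and overlaps come from GENCODE 29. The members and the 6 lists of other genes were chosen with earlier results of these data known. Named are, in each comparison, up to 8 called members per direction with the smallest p, and up to 4 per subunit where fewer were called; the highest and lowest by level; 3 by pseudogene share; up to 4 called genes per list, and every paralog; list genes are given mostly by their fold change; others named were chosen after their values were seen. Results of some genes are not reported here. The alternatives were RLE and upper-quartile factors, DESeq2 1.42.0, limma-voom (limma 3.58.1), no filter, a filter of 1 CPM in 3 libraries, pseudogene counts added, the replicate block, all 12 libraries in 1 fit and each library left out.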

Additional observations from a re-analysis of the deposited data

How the results depend on the processing

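In siDRAIC against siDRAIC-NC, 0 members were called in every alternative except the replicate block (1) and the fit without siDRAIC-NC replicate 1 (0 to 7 over the fits that leave out 1 library). None of the 82 values that the naming rule picked changed direction in any alternative. Over all 77 members, 15 crossed 0 in some alternative in siDRAIC, 4 after hnRNPA2B1 siRNA, 38 for the difference and 11 between the control groups. After hnRNPA2B1 siRNA 39 were called; all 12 libraries in 1 fit gave 0, leaving out 1 library gave 22 to 49, the other alternatives 31 to 39, and upper-quartile factors 31 lower and 4 higher. The replicate block, where same-numbered libraries of that experiment did not deviate together, gave 31, all lower, against 28.1% of all tested genes called. Except for siDRAIC-NC replicate 1, the share of all tested genes called when 1 library is left out is not given here. No alternative called a member for the difference of the changes. Between the control groups 38 were called, 26 to 57 with 1 library left out and 35 to 43 otherwise; no paired analysis was possible there because the replicate numbers lie within each experiment. The median of the large subunit members in siDRAIC was -0.29 to -0.13 with 1 library left out. Leaving mitochondrially encoded genes out of the total moved the mean share of all members to 4.58% in siDRAIC, 5.07% in siDRAIC-NC, 4.31% in sihnRNPA2B1 and 4.54% in sihnRNPA2B1-NC. Over those that leave out 1 library 27 calls of named genes were lost and 6 gained, and over the others 43 lost, most in the fit of all 12 libraries, and 1 gained. With 3 libraries a group, the spread between libraries, not counting depth, limits these genes; the cause of the changes between settings was not tested.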
